A study of Mus musculus with 6 samples.

Results

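The venular selectins and leukocyte adhesion genes are a set of 8 mouse genes, Selp, Sele, Icam1, Icam2, Vcam1, Ackr1, Cd34 and Podxl, picked by gene symbol out of the 19131 genes in the tables. All 8 were found, and all 8 were among the 15035 genes that kept enough reads to be tested. Bulk RNA-seq was run on whole skin of embryonic day 17.5 mice in 2 groups of 3 libraries, Tie1 knockout and control, both on the C57BL/6N strain background. The sample titles carry Tie1ECDKO for the knockout and Tie1ECDWT for the control. The labels do not explain ECD, the extent of the Tie1 deletion, the cells that carry it or whether each library is a separate embryo, so the tests below measure only the spread between these samples. The 8 genes were chosen with earlier results of this knockout and control contrast known. Their fold changes and calls are therefore a description of these libraries, with no p-value. Genes around them in the pathway were tested over all genes, but their lists were also chosen with earlier results of these data known. Counts over these lists are therefore descriptions too.

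Leukocytes leave the blood mainly through venules, the small veins behind the capillaries. Selectins on the venular endothelium catch passing cells by binding sugars on their surface, chemokines held at the vessel wall activate the cells' integrins, and these integrins then grip ICAM and VCAM proteins before the cell crosses. P-selectin waits in Weibel-Palade bodies, the storage granules of endothelial cells, and E-selectin is made on demand after cytokine signals. TIE1 is a receptor tyrosine kinase found on endothelium that acts beside the angiopoietin receptor TIE2. The title of the series places it in vessel sprouting and vein assembly.

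Each library held 19826856 to 20591164 estimated reads, so that 3 reads, taken as the floor of detection, were worth 0.147 to 0.155 CPM (reads as a share of library size, scaled between libraries by the TMM method). Tie1 itself had values of 4.33, 2.63 and 2.26 CPM in knockout libraries, against 58.6, 50.7 and 60.0 CPM in the control libraries, so every library matched its label. Keratinocyte and fibroblast markers were abundant: their lists summed to 21129 to 26247 and 23841 to 27148 CPM in knockout skin, and to 15563 to 32307 and 22363 to 26925 CPM in control skin. Knockout 1 and control 1 stood apart from the other libraries in hair follicle genes, with mean log2 CPM of 3.56 and 3.67 against 5.14 to 5.73 elsewhere. Posterior Hox genes, which mark body position, had a mean log2 CPM of 4.02 to 4.26 in knockout libraries, against 4.21, 3.57 and 3.19 in control libraries 1, 2 and 3. With this score as a covariate the log2 fold changes were −4.41 for Selp, −3.78 for Sele and −2.005 for Ackr1.

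The regions just upstream of Selp, Sele and Ackr1 are shown because these are the members whose groups did not overlap, and that of Icam1 because its level was alike in both groups. Sequences are from RefSeq on GRCm38.p6, each the 250 bases before the start site that the RefSeq table uses, read 5′ to 3′ on the gene's own strand. For Sele that site, 164048234, is the start of its GENCODE transcript and lies 8620 bases inside the longer RefSeq span of the gene. For the others it is the 5′ end of the span. The table used held 5 of the 8 members (Selp, Sele, Icam1, Ackr1 and Cd34). Capitals mark matches to any of 4 short motifs on either strand. These are an NF-kB type site of 10 bases, of which 3 in the middle are free, TATAAA (the TATA box), GATAA (the GATA motif, TTATC on the other strand) and GGAAG (the ETS core, CTTCC on the other strand). An NF-kB type match can also hold the ETS core.
Selp, chr1:164115014-164115263, plus strand: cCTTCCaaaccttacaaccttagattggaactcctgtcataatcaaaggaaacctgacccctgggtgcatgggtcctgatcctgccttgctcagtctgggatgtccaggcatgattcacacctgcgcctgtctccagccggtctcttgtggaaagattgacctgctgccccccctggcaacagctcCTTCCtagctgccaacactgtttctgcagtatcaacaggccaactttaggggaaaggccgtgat
Sele, chr1:164047984-164048233, plus strand: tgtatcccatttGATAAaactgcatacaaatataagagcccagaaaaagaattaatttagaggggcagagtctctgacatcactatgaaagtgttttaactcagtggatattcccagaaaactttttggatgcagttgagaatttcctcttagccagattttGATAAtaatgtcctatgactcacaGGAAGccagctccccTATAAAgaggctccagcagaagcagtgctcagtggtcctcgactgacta
Ackr1, chr1:173333504-173333753, minus strand: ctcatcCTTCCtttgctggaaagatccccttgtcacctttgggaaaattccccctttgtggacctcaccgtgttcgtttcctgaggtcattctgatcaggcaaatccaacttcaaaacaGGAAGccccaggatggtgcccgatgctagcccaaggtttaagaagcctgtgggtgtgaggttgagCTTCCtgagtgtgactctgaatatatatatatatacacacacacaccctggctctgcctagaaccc
Icam1, chr9:21015690-21015939, plus strand: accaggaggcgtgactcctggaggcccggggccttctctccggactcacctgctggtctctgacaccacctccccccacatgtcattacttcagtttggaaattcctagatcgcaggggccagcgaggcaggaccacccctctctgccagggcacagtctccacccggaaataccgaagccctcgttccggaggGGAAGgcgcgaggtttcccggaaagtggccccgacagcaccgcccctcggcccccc

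Motifs were counted in the 300 bases that also include the 50 bases after the start, which are not printed. TATAAA was present for Sele, beginning 49 bases before position 164048234, and for Icam1, where it lay after the start. It occurred in 13.6% of all 32851 promoter windows. The ETS core was present in all 5 windows, in a motif that 71.4% of all windows hold. GATAA was found for Sele, and after the start for Ackr1 and Cd34, against 25.4% of all windows. The NF-kB type site was found in 0 of the 5 windows and in 5.56% of all windows, which says only that the motif is not in these windows.

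Transcripts of the venular selectins were nearly missing from knockout skin, and those of the chemokine receptor gene Ackr1 stood at 23.8% of the control mean. The immunoglobulin-family ligands of leukocyte integrins and the sialomucins had overlapping groups. Of the 8 genes, 2 passed an edgeR adjusted p under 0.05 over all genes, Selp and Ackr1, both lower in the knockout, where 0.0732% of all genes tested were called lower and 0.16% were called in either direction. In 3 of the 8, Selp, Sele and Ackr1, every knockout library lay below every control library, against 6.78% of all genes tested. Their median log2 fold change was −0.31, beside 0.0038 over all genes tested. Because the 8 genes were chosen with this contrast in view, nothing is read from these shares.

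**Figure D1:**
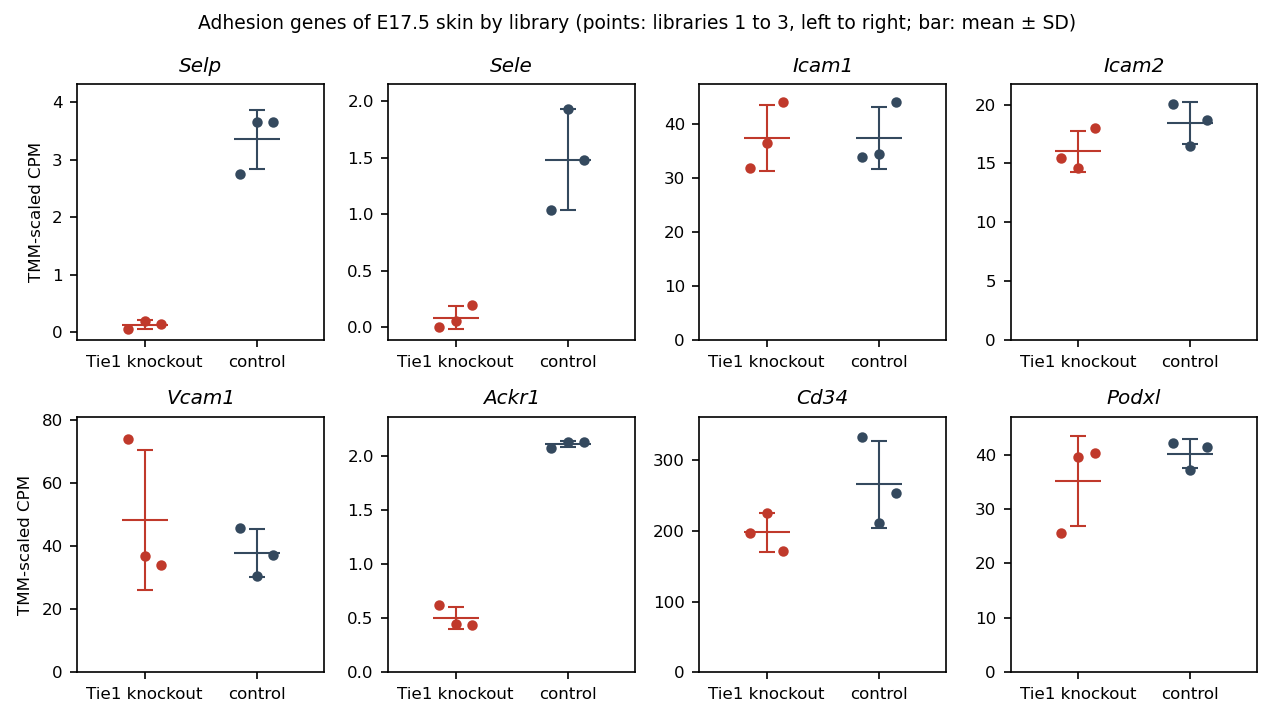
TMM-scaled CPM of the 8 adhesion genes in each library of Tie1 knockout (red) and control (dark) E17.5 skin, with points for libraries 1 to 3 from left to right and the bar at the mean ± SD (n = 3 each). Each panel has its own linear axis. Selp, Sele and Ackr1 have no overlap between groups, and Vcam1 and Podxl have 1 knockout library, knockout 1, away from the others.

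Selp encodes P-selectin, the receptor that starts leukocyte rolling and is also carried by platelets. It had 1, 4 and 3 estimated reads in the knockout libraries, against 56, 74 and 74 in the control libraries. The knockout libraries were at or near the floor of 3 reads and the control libraries all far above it. The gene averaged 0.132 ± 0.0745 CPM in knockout skin, against 3.36 ± 0.518 CPM in controls (SD, n = 3 each), a log2 fold change of −4.59 (SE 0.38). After scaling for library size, the summed reads of the knockout were 3.97% of those of the control. The exact (Clopper-Pearson) 95% interval was 1.69 to 7.98% and covers counting error only. The edgeR call was lost without knockout 2 (log2 change −4.98), knockout 3 (−4.67), control 2 (−4.54) or control 3 (−4.54), and kept without knockout 1 or control 1.

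Sele encodes E-selectin, which slows rolling cells on inflamed endothelium. It had 0, 1.01 and 4.06 estimated reads in the knockout libraries, against 21.0, 39.1 and 30 in the control libraries. Only knockout 3 was above the floor, and every control library was well over it. Its mean was 0.0820 ± 0.102 CPM in knockout skin, against 1.48 ± 0.448 CPM in controls (SD, n = 3 each). The summed reads, scaled in the same way, gave the knockout 5.63% of the control level, with a 95% counting interval of 1.78 to 13.6%. The fitted log2 fold change of −4.06 (SE 0.66) was not called by edgeR. It moved to −5.56 without knockout 3 and to −3.52 without knockout 1, and was called with both knockout 1 and control 1 left out, at −3.73. At so few reads the size of the difference is uncertain, and the counting interval leaves out the spread between libraries.

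Ackr1 encodes a receptor of venular endothelium that binds many chemokines and moves them across the cell without the usual signal; in humans it is also the Duffy antigen of red cells. It had 12, 9 and 9 estimated reads in the knockout libraries, against 42, 43 and 43 in the control libraries. The libraries of each group lay close together and the groups far apart. The gene averaged 0.502 ± 0.101 CPM in knockout skin, against 2.11 ± 0.0314 CPM in controls (SD, n = 3 each), a log2 fold change of −2.06 (SE 0.25). By summed reads, again scaled for library size, the knockout had 23.7% of the control value, with a 95% counting interval of 15.4 to 35.6%. The call was lost when any 1 of the 6 libraries was left out, while the log2 fold change stayed between −2.23 (without knockout 1) and −1.98 (without knockout 3). In RefSeq the span of Cadm3, a nerve cell adhesion gene on the same strand, covers 1612 of the 1618 bases of Ackr1, and in GENCODE the gene spans share 493 bases, so the split of reads between these genes is uncertain. Cadm3 stood at 5.57 ± 1.45 CPM in knockout skin, against 14.4 ± 4.64 CPM in controls (SD, n = 3 each), a log2 fold change of −1.37 that edgeR did not call (adjusted p = 0.222).

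These 3 genes passed the filter on low counts through the control libraries. The filter asked for about 10 reads in 3 libraries, a level that 3 control libraries reached for each gene and that 0 knockout libraries reached for Selp and Sele and 1 for Ackr1. Passing with 0 knockout libraries past the filter, Selp and Sele had to be higher in the control. The direction of Ackr1, with 1 such knockout library, was not fixed by the filter alone. This is a further reason to read the values as descriptions. The other 5 genes passed in all libraries of both groups.

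The ligands of leukocyte integrins were expressed at higher levels and their groups overlapped. Icam1, which encodes the ligand of the integrins LFA-1 and Mac-1, was at 31.8, 36.4 and 43.9 CPM in the knockout libraries, against 33.8, 34.4 and 43.9 CPM in the control libraries. Both groups covered almost the same range. Its log2 fold change was 0.0011 (SE 0.15), and its sign turned with the scaling used. Icam2, a ligand of LFA-1 that resting endothelium and platelets carry, was at 15.5, 14.6 and 18.01 CPM in knockout and 20.03, 16.5 and 18.7 CPM in control libraries, and 1 knockout library, knockout 3, lay inside the control range. Its log2 fold change was −0.20 (SE 0.12).

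Vcam1 encodes the ligand of the integrin VLA-4, and is made by activated endothelium and also by some macrophages and mesenchymal cells. It was at 74.1, 36.9 and 34.0 CPM in the knockout libraries, against 45.8, 30.6 and 37.2 CPM in the control libraries. Knockout 1 was the highest of all libraries and the other knockout libraries lay within the control range. The log2 fold change was 0.35 (SE 0.33) and turned to −0.094 without knockout 1. In each group the library with the highest Vcam1 level was the one low in hair follicle genes. Macrophage markers also had higher sums in the knockout, 460 to 549 CPM in knockout libraries, against 319 to 443 CPM in controls. Of these markers 8 of 8 had a log2 fold change above 0, as did 7693 of the 15035 genes tested. The part of either in the Vcam1 values was not tested.

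CD34 and podocalyxin are sialomucins, heavily glycosylated proteins of endothelium that can carry sugars bound by selectins and that also mark cells outside vessels, blood progenitors for CD34 and kidney podocytes and mesothelium for podocalyxin. Cd34 was at 197, 226 and 171 CPM in the knockout libraries, against 333, 211 and 254 CPM in the control libraries. Control 1 was the highest and control 2 lay below knockout 2, so the groups overlapped. The log2 fold change was −0.43 (SE 0.18), and −0.23 without control 1. Podxl was at 25.6, 39.5 and 40.3 CPM in knockout and 42.0, 37.1 and 41.4 CPM in control libraries, and knockout 1 alone lay below the control range. Its log2 fold change of −0.19 (SE 0.17) shrank to −0.0100 without knockout 1.

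Levels were compared between genes per kilobase of the longest principal coding transcript. In knockout skin the order was Cd34 (mean 80.8 CPM per kb), Icam1 (14.7), Vcam1 (13.9), Icam2 (12.5), Podxl (6.53), Ackr1 (0.436), Selp (0.0385) and Sele (0.0281). In control skin it was Cd34 (108 CPM per kb), Icam1 (14.7), Icam2 (14.3), Vcam1 (10.9), Podxl (7.47), Ackr1 (1.83), Selp (0.977) and Sele (0.509). The libraries of Icam1, Icam2 and Vcam1 overlapped between neighbours of the order in each group, as did those of Selp and Sele in the knockout. All other neighbours were separated. The 3 venular genes were thus the least abundant members in both groups, and each stood below Podxl, the next above them, in every library.

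The summed level of genes shared by all endothelial cells was not lower beside these values. The 14 pan-endothelial genes, Cdh5 and Pecam1 among them, summed to 997 to 1158 CPM in knockout libraries, against 921 to 988 CPM in controls. Among the 15035 genes tested 7693 had a log2 fold change above 0, as did 10 of these 14. The other 4 were Kdr (−0.17), Egfl7 (−0.20), Erg (−0.34) and Sox18 (−0.28). For Kdr, the main VEGF receptor gene, every knockout library lay below every control library, as for 1019 of the 15035 genes tested. The reverse held for 4 of the 14, Pecam1 (0.27), Eng (0.27), Robo4 (0.40) and Cd93 (0.39), and for 1057 of all genes tested. None of the 14 was called by edgeR. Set against the mean log2 CPM of these genes in the same library, Selp stood at −8.40, −7.48 and −7.94 in the knockout libraries and −4.23, −3.73 and −3.80 in the control libraries. The difference of the means was −4.02 on this log2 scale, which adds a prior count of 2 reads and so draws low genes together. For Sele the difference was −3.30 and for Ackr1 −1.97. The others moved less: Cd34 by −0.49, Podxl by −0.30, Icam2 by −0.28, Icam1 by −0.083 and Vcam1 by 0.20. Fewer venular cells and less RNA of these genes per cell cannot be told apart in whole skin.

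**Figure D2:**
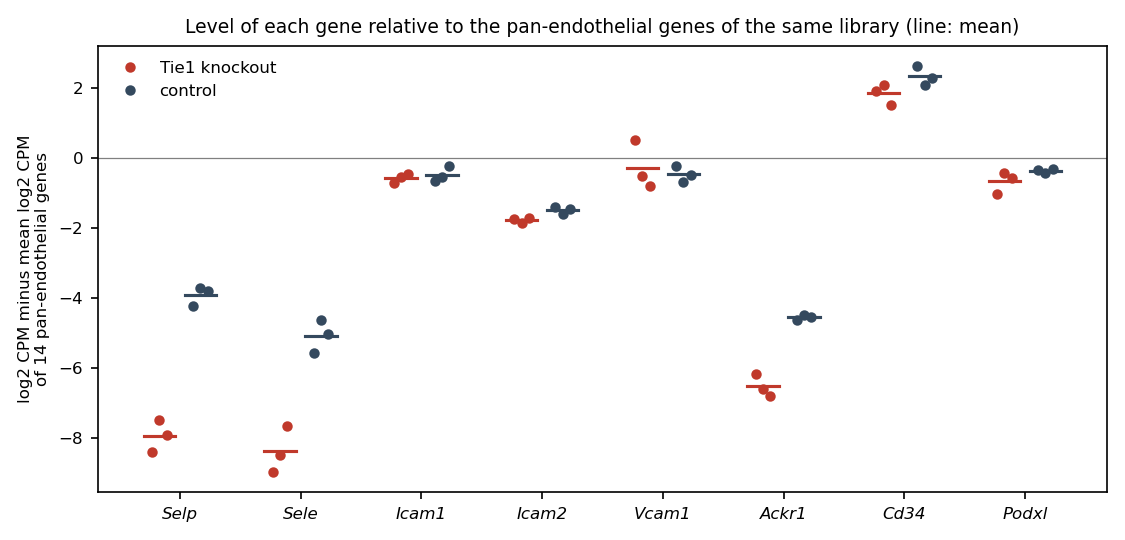
Level of each gene relative to 14 pan-endothelial genes of the same library (log2 CPM with a prior count of 2, minus the mean log2 CPM of those genes), in Tie1 knockout (red, left) and control (dark, right) libraries, with a line at each mean (n = 3). Selp, Sele and Ackr1 have knockout means that differ from the control means by −4.02, −3.30 and −1.97. Icam2, which overlaps in plain CPM, has its knockout libraries at −1.85 to −1.73 below the control libraries at −1.59 to −1.42. Podxl also overlaps in plain CPM. Its knockout libraries at −1.02 to −0.4275 all but touch its control libraries at −0.4269 to −0.333. The score subtracted was itself 5.71 to 5.91 in knockout and 5.65 to 5.75 in control libraries. How many of all genes stood apart on this scale was not counted, so nothing is read from it.

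Markers of other cells that carry these proteins were followed in the same libraries. Platelet and megakaryocyte markers summed to 70.2 to 161 CPM in knockout libraries, against 55.1 to 68.6 CPM in controls, and single genes of the list differed. Pf4, which macrophages also express, had 1272, 1082 and 1174 reads in knockout libraries, against 1066, 884 and 906 in controls. Ppbp had 25, 1929 and 49 reads in knockout libraries, against 22, 23 and 18 in controls, so knockout 2 sets the upper end of the sum. Itga2b, the platelet integrin gene, had 117, 125 and 88 reads in knockout libraries, against 145, 113 and 131 in controls, and these overlapped. Pan-leukocyte markers summed to 232 to 277 CPM in knockout libraries, against 237 to 325 CPM in controls, and neutrophil markers to 11.6 to 29.8 and 14.2 to 18.8 CPM. Mast cell markers had lower sums, at 1853 to 1911 CPM in knockout against 2667 to 3696 CPM in control skin. Erythroid markers summed to 3160 to 4082 CPM in knockout libraries, against 3017 to 7429 CPM in controls, the highest value being control 1. Mesothelial and podocyte markers varied widely, from 23.7 to 261 CPM in knockout and from 5.04 to 59.8 CPM in control skin. Mural cell markers had higher sums, at 653 to 701 CPM in knockout libraries, against 513 to 541 CPM in controls, with 6 of 6 genes above 0 in log2 fold change and Pdgfrb called by edgeR (0.67, SE 0.072, adjusted p = 0.0330). No marker of these lists was at 0 reads in all 6 libraries. Venous endothelial markers other than the 8 genes summed to 369 to 462 CPM in knockout libraries, against 544 to 562 CPM in controls. All 7 had a log2 fold change below 0, as did 7342 of the 15035 genes tested, but their sizes were uneven. Lrg1 stood at −2.79, Aplnr at −1.60 and Vwf, which is also a Weibel-Palade body gene, at −1.21. Slco2a1 (−0.31), Ephb4 (−0.18) and Nrp2 (−0.17) moved less, and Nr2f2 was almost level (−0.0051). The Aplnr mean went from 98.1 CPM in controls to 32.4 CPM in the knockout. The part of these cells in the results was not tested.

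Selp, Sele, Ackr1 and Cd34 all lie on chromosome 1 (GRCm38.p6). Sele (positions 164039614 to 164058487) and Selp (164115264 to 164150026) are 56.8 kb apart. The 3 nearest tested genes on one side of the pair, Mettl18, BC055324 and Scyl3, had log2 fold changes of −0.15, −0.089 and −0.050. On the other side F5, the coagulation factor V gene 1.81 kb from Selp, stood at −0.81 (SE 0.31), Slc19a2 at 0.40 and Ccdc181 at 0.27. Around Cd34 (194938821 to 194961292) the tested neighbours Lamb3, Camk1g, Plxna2, Cd46 and Cr1l ranged from −0.029 to 0.21. Around Ackr1 (173331886 to 173333503) Dusp23, Vsig8, Cfap45, Aim2 and Ifi206 ranged from −0.052 to 0.38. Of these 17 flanking neighbours, Cadm3 included, 0 were called by edgeR, 2 (F5 and Cadm3) were lower at an unadjusted p under 0.05, where 3.35% of all genes tested were, while DESeq2 called Cadm3 alone, with 1.4% of all genes called, and limma-voom none. GENCODE also places noncoding genes on the strand opposite Selp (2 genes), Icam1, Vcam1 and Cd34 (1 each), and their reads cannot be told apart from those of the members where counting ignores strand.

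The other members lie elsewhere: Icam1 on chromosome 9 (21015940 to 21028814), Icam2 on chromosome 11 (106377656 to 106388139), Vcam1 on chromosome 3 (116110020 to 116129688) and Podxl on chromosome 6 (31519493 to 31563937).

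The rest of the adhesion pathway was examined in 8 lists of 112 genes, of which 99 were tested. By edgeR 1 of them rose and 1 fell, where 0.16% of all genes tested were called in either direction. At an unadjusted p under 0.05, 9 were higher and 6 lower, where 4.08% and 3.35% of all genes tested were. DESeq2 called 6 and limma-voom 2, where they called 1.4% and 0.133% of all genes. Their median log2 fold change was 0.031, beside 0.0038 over all genes. The shares over all genes given here also stand beside the counts of single lists below.

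Both called genes are contents of the granules that also store P-selectin. Of 12 Weibel-Palade body genes, Vwf, the von Willebrand factor gene, fell to 15.3 ± 2.11 CPM in knockout skin, against 35.4 ± 3.13 CPM in controls (SD, n = 3 each; log2 change −1.21, SE 0.12, edgeR adjusted p = 0.0247). Angpt2, which encodes a TIE2 ligand, rose to 35.8 ± 0.901 CPM in knockout, against 18.8 ± 2.64 CPM in control skin (log2 change 0.93, SE 0.11, edgeR adjusted p = 0.0353). The other 10 ranged from −0.19 to 0.25, and Rab3d, the next by p, stood at 0.13 (SE 0.12, edgeR adjusted p = 0.831). With 1 library left out, Vwf was still called only without knockout 1, with log2 fold changes of −1.30 to −1.11 over the 6 fits. Angpt2 was called in none of these fits, at 0.83 to 1.03.

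Among 12 other adhesion and transmigration genes edgeR called none. At an unadjusted p under 0.05, 2 were higher and 2 lower, where 4.08% and 3.35% of all genes tested were. DESeq2, which called 1.4% of all genes, called 1 and limma-voom 0. The gene called by DESeq2 was Madcam1, the vascular addressin that binds the integrin of gut-homing lymphocytes. It had 16, 11 and 9 reads in knockout libraries, against 42, 46 and 35 in control libraries, which did not overlap (log2 change −1.74, SE 0.30, edgeR adjusted p = 0.109). Leaving out knockout 1 and control 1 together, edgeR called it too (−2.01). Mcam, an adhesion molecule of endothelium and pericytes, stood at 0.24 (SE 0.083, edgeR adjusted p = 0.532) beside the higher mural cell sums, whose part in it was not tested, and Aoc3, the vascular adhesion protein gene, at −0.30 (SE 0.11, edgeR adjusted p = 0.597).

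Of the 9 partners of the sialomucins, which include related mucins and the proteins that tie them to actin, edgeR called none, with 1 at an unadjusted p under 0.05. It was Emcn, the endomucin gene of capillaries and veins, at 23.2 ± 0.853 CPM in knockout skin, against 33.1 ± 3.71 CPM in controls (SD, n = 3 each; log2 change −0.52, SE 0.097, edgeR adjusted p = 0.153). DESeq2 called it and limma-voom did not. Ezr, which encodes the linker ezrin, stood at 0.24 and Slc9a3r2, a scaffold that binds podocalyxin, at 0.10.

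The leukocyte side of the pathway showed no called gene by edgeR, DESeq2 or limma-voom. Of the 13 counter-receptor genes 1 had an unadjusted p under 0.05. It was Itgam, the alpha chain of Mac-1, at 15.7 ± 1.74 CPM in knockout skin, against 11.03 ± 1.23 CPM in controls (SD, n = 3 each; log2 change 0.51, SE 0.13, edgeR adjusted p = 0.323). Itga4 and Itgb1, the chains of VLA-4, stood at 0.27 and 0.14. Of the 12 tested enzymes that build selectin ligands, 0 had an unadjusted p under 0.05, and the first 3 by p were Fut4 (0.34), C1galt1c1 (0.14) and St3gal4 (−0.096). Fut4 moved to 0.087 without knockout 2, and C1galt1c1 to 0.026 without knockout 1. Fut7 and Chst4 had too few reads to be tested.

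Genes of the signals that switch on adhesion genes had mostly small positive fold changes. Of 21 tested cytokine and NF-kB genes 19 had a log2 fold change above 0, where 7693 of the 15035 genes tested did. The median of the list was 0.11, beside 0.0038 over all genes tested. Whether the list as a whole differed was not tested. None of the 21 was called by edgeR, DESeq2 or limma-voom. At an unadjusted p under 0.05, 1 was higher, where 4.08% of all genes tested were. That gene, Nfkbia, an inhibitor that NF-kB itself induces, was at 61.4 ± 5.97 CPM in knockout skin, against 48.1 ± 1.17 CPM in controls (SD, n = 3 each; log2 change 0.35, SE 0.084, edgeR adjusted p = 0.276). Nfkbiz stood at 0.29 and Il13ra1 at 0.22. Il1b, Il4 and Il13 had too few reads to be tested.

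Of 14 endothelial transcription factor genes none was called by edgeR. At an unadjusted p under 0.05, 3 were higher and 2 lower, where 4.08% and 3.35% of all genes tested were. DESeq2, which called 1.4% of all genes, called 1, Hlx, and limma-voom 0. Hlx stood at 0.60 (SE 0.15, edgeR adjusted p = 0.322), Ets1 at 0.23 (SE 0.064, edgeR adjusted p = 0.380) and the flow-responsive Klf2 at −0.43 (SE 0.14, edgeR adjusted p = 0.533). Of the 6 tested chemokines and atypical receptors around ACKR1 edgeR called none, with 1 at an unadjusted p under 0.05. It was Ccl2, a monocyte chemokine that ACKR1 binds, with 61, 51 and 55 reads in knockout against 25, 29 and 20 in control libraries. The groups did not overlap (log2 change 1.19, SE 0.23, edgeR adjusted p = 0.155), and DESeq2 called it while limma-voom did not. The related receptor genes Ackr3 and Ackr2 stood at 0.46 and −0.52, and Ackr3 moved to 0.12 without knockout 2.

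**Figure D3:**
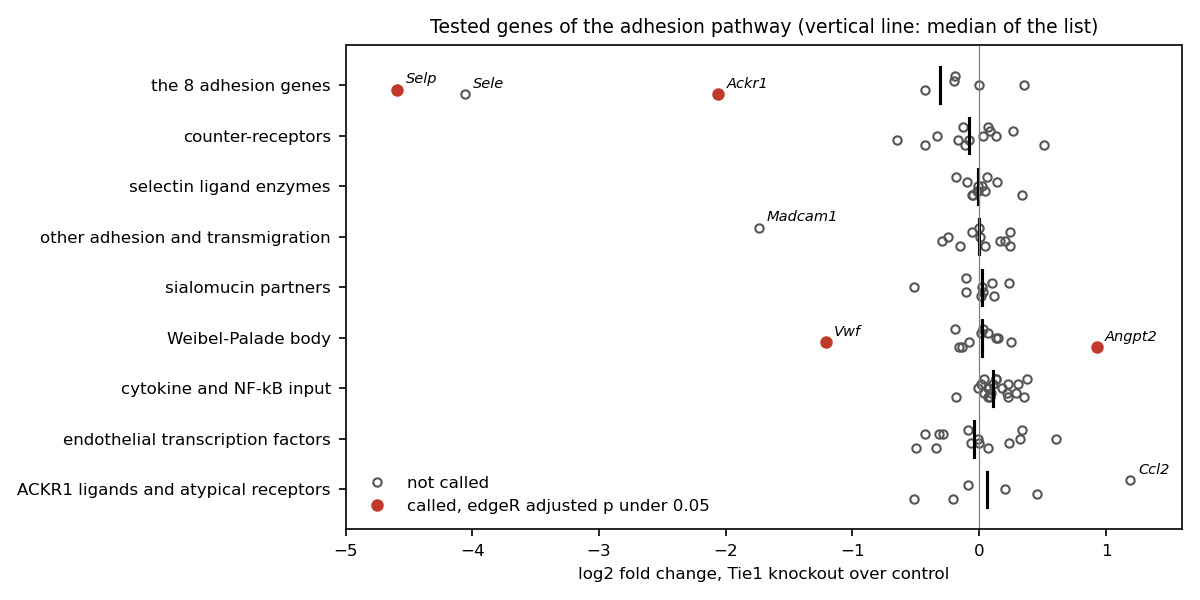
Log2 fold change, Tie1 knockout over control, of every tested gene in the set of 8 and in 8 pathway lists, with filled points for genes called by edgeR and a vertical line at each list's median. Selp, Sele and Ackr1 lie at −4.59, −4.06 and −2.06, and outside the 8 genes Madcam1, Vwf and Ccl2 lie beyond 1 log2 unit in either direction.

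Genes with the most similar pattern were sought among 13835 or 13836 tested genes that averaged 1 CPM or more, by the root mean square difference of log2 CPM over the 6 libraries after centring each gene on its own mean. A smaller value is a closer pattern. Sele averaged less than this limit and so could not be named as a match. For Selp the closest were Tie1 (0.58), Klrb1f (0.62) and Lrg1 (0.71), where the median gene was at 1.997. Selp and Sele themselves differed by 0.53, less than Selp and any of these. For Sele they were Lrg1 (0.30), Selp (0.53) and Ccl21a (0.60), with the median gene at 1.69. For Ackr1 they were Madcam1 (0.20), Nxph1 (0.25) and Sphkap (0.32), with the median gene at 0.97. These patterns follow the genotype, since all of these genes had lower knockout than control means.

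The remaining members varied mainly within groups. Icam1 was closest to Nipa1 (0.043), Stom (0.055) and Cmc1 (0.060), and Icam2 to Mrps6 (0.032), Pcbd1 (0.034) and Amacr (0.043). Vcam1 was closest to Sned1 (0.052), Vasn (0.095) and Zdhhc9 (0.097), Cd34 to Tmem178b (0.092), Slc4a4 (0.093) and Klf2 (0.093), and Podxl to Zfp456 (0.045), Zmynd15 (0.067) and Igsf1 (0.068). For these 5 members the median gene lay at 0.20 to 0.44. The likeness is a description over 6 libraries that share 2 genotypes.

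The fold changes were refitted under 18 other settings. Selp, Sele and Ackr1 stayed below 0 in each of them, at −4.98 to −4.23, −5.56 to −3.52 and −2.24 to −1.96, as did Icam2 and Cd34 at smaller sizes. Icam1, Vcam1 and Podxl crossed 0 in at least 1 setting. With DESeq2 3 of the 8 genes were called, Selp, Sele and Ackr1, all lower, where 0.585% of all genes were called lower. With knockout 1 and control 1 both left out, edgeR called the same 3 genes, where 0.458% of all genes were called lower. With the pan-endothelial score as a covariate 0 were called, with log2 fold changes of −4.51 for Selp and −1.96 for Ackr1, where 0.02% of all genes were called lower.

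**Figure D4:**
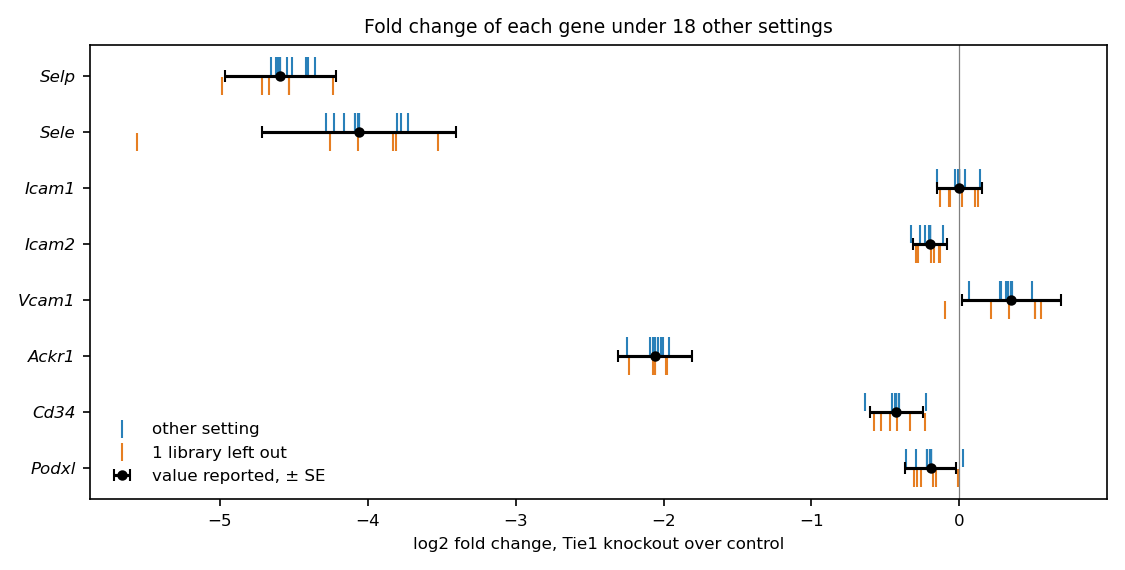
Log2 fold change, Tie1 knockout over control, of the 8 genes as reported (black, ± SE), with each of 6 libraries left out in turn (orange) and under 12 other settings (blue). Selp, Sele and Ackr1 lie well left of 0 throughout, and Sele without knockout 3 lies farthest left at −5.56.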

How the data were processed

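Each deposited file holds 1 estimated count (expected read count) per gene for 1 library, not normalized, per the file headers and values. The submitters' processing notes list RSEM 1.2.12, Bowtie2 2.2.5 and HISAT2 2.0.4 with the build GRCm38.p6, without saying what each did; whether counting used strand is not stated there. Per the labels' protocols, mRNA was purified with oligo(dT) beads and amplified by PCR, so counting intervals do not cover amplification. Estimated counts were rounded and filtered with filterByExpr (minimum count 10), scaled with TMM and tested with edgeR 4.0.16 in R 4.3.3 (quasi-likelihood, robust, genotype alone in the model). Calls are at an adjusted p under 0.05, adjusted by Benjamini-Hochberg over every gene tested. The SE of a log2 fold change is its size divided by the square root of F. DESeq2 1.42.0 and limma-voom (limma 3.58.1), other scalings and filters, a fit that was not robust, another prior count, the replicate number as a block, pan-endothelial and posterior Hox scores as covariates, and fits without libraries were alternatives. The members and lists were chosen with earlier results of these data known. Named genes are the 8 members, Tie1, called pathway genes or else the 3 of each list with the smallest p, tested flanking neighbours on chromosome 1 (1 gene is not reported here) and the 3 closest patterns per member. Lengths and overlaps come from GENCODE unless RefSeq is named, and gene positions and promoters from RefSeq. Some genes belong to a pathway list and also to a cell list (Vwf, Nr2f2, Esam, Erg and Sox18). Protein sequences were not analysed here.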

Additional observations from a re-analysis of the deposited data

How the results depend on the processing

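In the fits above 24 genes, 2 of the 8 adhesion genes and 2 pathway genes were called. All genes called numbered 38 with no low-count filter, 210 with DESeq2, 52 with the replicate block, 8 with the pan-endothelial score and 15 with the posterior Hox score as covariate, 139 without knockout 1 and control 1, and 1 to 11 with 1 library left out. Of the 8 adhesion genes 1 was called with the replicate block (Selp), 0 with the pan-endothelial score, 1 with the posterior Hox score (Selp) and 0 to 1 with 1 library left out. Of the pathway genes 6 were called by DESeq2, 0 with either score and 0 to 1 with 1 library left out. With the pan-endothelial and posterior Hox scores Vwf stood at −1.32 and −1.15, and Angpt2 at 0.89 and 1.01. Of 24 named pathway genes 11, none of them called by edgeR, moved by over 1.5 times with 1 library left out. The cause of these shifts was not tested, beyond the smaller number of samples in fits that leave libraries out.

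The groups share replicate numbers, but same-numbered libraries deviated together unevenly (correlations of deviations 0.411, 0.0432 and 0.266 for numbers 1, 2 and 3). Knockout 1 and knockout 3 correlated best with the control of the same number, and knockout 2 with control 3. Hair follicle scores of numbers 1, 2 and 3 were 3.56, 5.20 and 5.39 in knockout and 3.67, 5.14 and 5.73 in control libraries. Whether the numbers are pairs is not settled, so the main fit did not pair them and the block is given as an alternative. The block moved Ackr1 out of the calls at a log2 fold change of −2.06.

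Icam1 changed sign with upper-quartile scaling (−0.028), no filter (−0.0062), the replicate block (−0.00092) and the pan-endothelial score (−0.15), and ranged from −0.13 to 0.13 with 1 library left out. Vcam1 ranged from −0.094 to 0.55 with 1 library left out. Without knockout 1 and control 1, Podxl turned to 0.024, St3gal4 to 0.014 and Rab3d to −0.042, where leaving out 1 library gave −0.30 to −0.0100, −0.16 to −0.016 and 0.010 to 0.19. The neighbour Cfap45 turned to −0.0052 with no filter. In the last 150 bases before the start, 1 member had TATAAA and 1 had GATAA, which follows from the shorter window. Levels of the 8 genes in CPM moved by less than 1 SD under both other scalings. Depth limits Selp and Sele in knockout skin, where a library held at most 4.06 reads of either.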

Other observations

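Some cell markers were uneven between libraries of a group. Among platelet markers Ppbp had 25, 1929 and 49 estimated reads in the knockout libraries, against 22, 23 and 18 in the control libraries, while Pf4 varied far less. The mesothelial genes Msln and Upk3b varied in both groups: Msln had 712, 3642 and 178 reads in the knockout libraries, against 461, 220 and 31 in the control libraries, and Upk3b had 1117, 1512 and 273 reads in the knockout libraries, against 708, 291 and 42 in the control libraries. The neutrophil genes S100a8 and S100a9 had 108 and 260 reads in knockout 3, and at most 32 and 64 in any other library. These genes were singled out after their values were seen. Klrb1f was the closest in pattern to Selp after Tie1 among tested genes that averaged 1 CPM or more. It averaged 0.117 ± 0.0323 CPM in knockout skin, against 2.11 ± 1.08 CPM in controls (SD, n = 3 each). Its log2 change was −4.10 (SE 0.54) and was not called by edgeR. The gene was picked by its likeness to Selp in these libraries, so no p-value is given. Its knockout mean lay below the filter level of about 0.498 CPM, so it passed through the control libraries.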
